A study of Mus musculus with 16 samples.

Results

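The genes described here are 10 regulators and markers of the hair follicle bulge, the niche of the follicle's stem cells: the transcription factors Lhx2, Sox9, Tbx1, Runx1, Nfatc1, Foxc1 and Foxp1, the homeodomain protein gene Hopx, the surface marker gene Cd34 and the growth factor gene Fgf18. They were taken by name, and all 10 were found among the 55305 gene rows shared by both expression tables. The study compared control mice with mice labelled GRK2 eKO, all of strain C57BL/6, by bulk RNA sequencing of 16 libraries. Whole back skin gave 5 control and 5 eKO libraries from animals aged 8 months, and sorted hair follicle stem cells (HFSC), taken as CD34+ α6-integrin+ bulge cells by flow cytometry, gave 3 control and 3 eKO libraries. For HFSC the sample labels read 18 months, but the text on the design of the series reads 8 months for skin and HFSC alike. The skin replicate numbers only name the libraries. The labels do not spell out the abbreviation eKO, and the promoter or Cre line behind the genotype is not given in the sources used here. GRK2 is a kinase that phosphorylates activated G-protein-coupled receptors.

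Bulge stem cells rest for most of the hair cycle and divide briefly when a new hair begins to grow. A network of transcription factors keeps them in their own lineage, away from epidermal and sebaceous fates, and another layer of signals and repressors keeps them out of the cell cycle. Lhx2, Sox9 and Tbx1 are known for the first task, Nfatc1, Foxc1, Foxp1 and the secreted factor Fgf18 for the second, and Runx1 for the passage from rest to growth. Cd34 and Hopx are used as markers of the compartment.

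The depth was 6.43 to 9.39 M recovered reads per HFSC library and 8.21 to 16.4 M per skin library (M, the prefix mega). Values are normalised read counts, that is reads divided by a size factor of each library. Grk2, the targeted gene, did not pass the test in either tissue: its normalised read count was 135 ± 12.0 in control and 114 ± 8.68 in eKO HFSC (SD, n = 3 each, limma adjusted p = 0.501), and 1298 ± 144 and 1110.5 ± 93.8 in skin (SD, n = 5 each, limma adjusted p = 0.343). Whether the deleted part of the gene is counted is not known from these gene totals. The sorted cells carried the defining bulge marker Krt15 at 95754 to 119551 normalised reads in all 6 libraries. Markers of other cells differed between the HFSC groups. Reads summed over 12 endothelial genes ran from 8.32 to 10.6 RPM (reads scaled to a library total of 1 M) in control and from 169 to 195 in eKO libraries, with Vwf and Emcn at 0 in all controls, and Cldn5 and Ecscr at 0 in all libraries of both groups. The sums of 10 genes of differentiated epidermis (797 to 1018 against 2908 to 2964 RPM), 10 of the sebaceous gland (472 to 489 against 1492 to 1679), 8 of the isthmus and infundibulum (1080 to 1130 against 2079 to 2123), 19 of the hair matrix and shaft (89.8 to 98.6 against 342 to 389) and 11 of leukocytes (51.4 to 55.3 against 198 to 325) were higher in the eKO libraries, whereas those of 7 melanocyte genes (281 to 339 against 89.6 to 135) and 9 dermal fibroblast genes (20.1 to 23.0 against 12.0 to 18.9) were lower. In the leukocyte list the genes that passed the test were the 3 of MHC class II (Cd74, H2-Ab1 and H2-Eb1), while Ptprc, the pan-leukocyte marker, stood at 14.9 ± 4.98 normalised reads in control and 16.6 ± 12.5 in eKO libraries (SD, n = 3 each) and overlapped. Reads of 4 Y-linked genes summed to 349 to 366 RPM in control and 98.9 to 118 in eKO HFSC, so the sex of the animals and the genotype cannot be told apart there. The part of these differences in the results below was not tested. In skin the Y-linked sum was 0.171 RPM in control replicate 5 and 0.0610 in eKO replicate 3. The group medians there were 222 RPM in control and 213 in eKO skin.

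In control HFSC the regulators were spread over a wide range of expression. Compared between genes per length, as RPM per kilobase of exon (RPKM), Sox9, the HMG-box factor that specifies the stem cells, stood at 848 ± 42.5 (SD, n = 3). Nfatc1, the calcium-regulated factor of quiescence, followed at 101 ± 5.68, then Foxp1, a forkhead repressor, at 66.4 ± 2.34 on the same scale. Lhx2, a LIM-homeodomain factor, at 55.8 ± 0.351 and Tbx1, a T-box factor, at 45.9 ± 22.0 came next and overlapped each other. Below them came Cd34 (25.6 ± 1.81), Runx1 (21.2 ± 1.27), Hopx (16.7 ± 2.25), Foxc1 (7.96 ± 1.41) and Fgf18 (2.84 ± 0.325), each above the next in every control library. In the eKO libraries the first place stayed with Sox9 (722 ± 77.4) and the second with Nfatc1 (79.8 ± 11.5), while Foxp1 stood in place 5 at 40.6 ± 2.44, below Lhx2 (55.9 ± 2.87) and Tbx1 (47.8 ± 9.58). Foxp1 lay below every Lhx2 value of the eKO group, and its values overlapped those of Tbx1.

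Genotype and the regulators in HFSC were compared first. Foxp1 was lower in eKO cells and was the 1 regulator of 10 that passed the test, against 19.4% of all genes tested in HFSC (8.74% called as lower), so the count of calls is no higher than the background. Fitted log2 fold changes were below 0 for 7 of the 10, with a median of -0.19 against -0.029 over all genes tested. The control and eKO libraries did not overlap for Foxp1, Nfatc1 and Fgf18, all lower in eKO, a share of 3 in 10 where 36.3% of all genes tested did not overlap and 17.4% did so with lower eKO values. At an unadjusted p under 0.05, 4 of the 10 were lower (Foxp1, Nfatc1, Hopx and Fgf18, the last of which entered the test through the control libraries alone), where 32.8% of all genes reached that level in either direction. In bulk RNA, fewer cells of a type and less RNA of a gene per cell cannot be told apart, here and in every comparison that follows.

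Lhx2, which holds bulge cells in their identity and at rest, had normalised read counts of 1638, 1653 and 1663 in the control libraries and 1848, 1657 and 1700.1 in the eKO libraries. The groups overlapped, the controls lying within a very narrow span, and the log2 fold change was 0.070 (95% interval -0.13 to 0.27, limma adjusted p = 0.647). Sox9 stood at 23941, 22354 and 24463 in control and 18777, 23029.7 and 21424 in eKO cells. One eKO library lay within the control range and the others below it, and the log2 fold change of -0.17 (95% interval -0.34 to 0.0033) did not pass the test (limma adjusted p = 0.161). Tbx1, which supports repeated self-renewal of the bulge, had 683, 901 and 1674 in control and 1419, 1213 and 929 in eKO libraries. The control libraries alone spanned the whole eKO range, and the log2 fold change was 0.21 (-0.34 to 0.76, limma adjusted p = 0.612), turning to -0.071 without control replicate 1. Runx1, the runt-domain factor of stem cell activation, was measured at 1804, 1617 and 1729.7 in control and 1699, 1974 and 1842 in eKO libraries, which overlapped (log2 fold change 0.097, -0.12 to 0.31, limma adjusted p = 0.531).

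Among the genes of quiescence, Nfatc1 had normalised read counts of 4965, 4889 and 5409 in control and 3648, 4824 and 4148 in eKO cells. Every eKO library was below every control library, the nearest pair being close to each other, and the log2 fold change was -0.28 (SE 0.10, limma adjusted p = 0.0674). The call on Nfatc1 depended on the scaling and on a single library: the adjusted p was 0.0286 in limma with library size as the only scaling, 0.0328 in edgeR with the same scaling, and 0.0170 in limma without eKO replicate 2. Foxc1, a forkhead factor of quiescence and of bulge cell adhesion, stood at 252, 324 and 363 in control and 305, 201 and 312 in eKO libraries, which overlapped (log2 fold change -0.21, limma adjusted p = 0.528).

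Foxp1, which lengthens the resting phase of bulge cells, had 5895, 6179 and 6355 normalised reads in the control libraries and 3743, 3905 and 4159 in the eKO libraries. The groups were far apart and each was narrow, with means of 6143 ± 232 and 3935 ± 209.5 (SD, n = 3 each). The log2 fold change was -0.64 (SE 0.078), a decrease of 36.0% with a 95% interval from 28.0% to 43.0% (limma adjusted p = 9.88e-05). The call on Foxp1 held in all 15 alternatives run in HFSC, with log2 fold changes from -0.71 to -0.61.

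Foxp1 has 3 annotated start windows in RefSeq, on the minus strand of chromosome 6 of GRCm38.p6. The 250 bases before each start are printed 5′ to 3′ because Foxp1 carried the one call, and its gene-level value cannot say which start its reads came from. Capitals mark matches to binding motifs of the regulators' own families, searched on both strands.
Foxp1 start 1, chr6:99520994-99521243: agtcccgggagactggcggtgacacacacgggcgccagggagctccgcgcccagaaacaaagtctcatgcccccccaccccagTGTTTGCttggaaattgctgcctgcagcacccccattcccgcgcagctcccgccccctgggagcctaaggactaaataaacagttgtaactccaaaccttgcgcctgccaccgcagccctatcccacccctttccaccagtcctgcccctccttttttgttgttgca
Foxp1 start 2, chr6:99266516-99266765: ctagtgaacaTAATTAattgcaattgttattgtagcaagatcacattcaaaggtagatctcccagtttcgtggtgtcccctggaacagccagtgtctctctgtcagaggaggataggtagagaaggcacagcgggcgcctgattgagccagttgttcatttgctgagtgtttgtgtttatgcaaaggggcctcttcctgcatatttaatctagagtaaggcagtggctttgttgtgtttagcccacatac
Foxp1 start 3, chr6:99028299-99028548: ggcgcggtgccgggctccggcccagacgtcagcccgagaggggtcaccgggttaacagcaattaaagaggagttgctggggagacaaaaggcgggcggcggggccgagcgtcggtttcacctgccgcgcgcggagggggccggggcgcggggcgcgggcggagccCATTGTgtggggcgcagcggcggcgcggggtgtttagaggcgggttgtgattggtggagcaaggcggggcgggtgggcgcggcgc
The first window held a forkhead match (TGTTTGC) that begins 167 bases before the start, the second a LIM homeodomain match (TAATTA) at 240 bases and the third a SOX match (CATTGT) at 85 bases. The motifs searched were TGTTTNC for forkhead factors, TGTGGT for runt, ACAATG for SOX, GGAAAA for NFAT, TAATTA for LIM homeodomain and GGTGTGA for T-box factors. Of all 32851 windows of this length, 17.8% held the forkhead, 4.84% the LIM homeodomain and 10.7% the SOX motif. Across the 14 windows matched to 8 of the 10 genes, the forkhead motif was in 3 (Foxp1, Runx1 and Cd34), NFAT in 3 (20.4% of all windows), runt in 1 (14.0%), SOX in 1, LIM homeodomain in 1 and T-box in 0 (3.33%). A match describes the letters and does not show binding.

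Fgf18, a secreted growth factor that keeps follicles in the resting phase, was scarce in HFSC, with normalised read counts of 24.9, 20.0 and 23.0 in control and 10.6, 3.29 and 7.46 in eKO libraries, which rest on 25, 19 and 23 against 14, 3 and 7 reads. Every eKO library was below every control library, and Fgf18 entered the test through the control libraries alone. The log2 fold change was -1.65 (95% interval -3.08 to -0.22, limma adjusted p = 0.101) and did not pass. The 250 bases before its start, on the minus strand of chromosome 11 of GRCm38.p6, are shown as a contrast to the Foxp1 windows.
Fgf18 start, chr11:33147401-33147650: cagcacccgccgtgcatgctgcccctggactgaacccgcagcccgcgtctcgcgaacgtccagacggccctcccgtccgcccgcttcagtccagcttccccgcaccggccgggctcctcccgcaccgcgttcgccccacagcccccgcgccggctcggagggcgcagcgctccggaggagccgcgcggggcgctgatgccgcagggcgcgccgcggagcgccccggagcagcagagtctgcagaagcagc
The Fgf18 window held none of the 6 motifs and was the richest in G and C of the regulators' windows, at 77.2% against a median of 52.4% over all windows. The lack of a match is not particular to Fgf18, since windows of Lhx2, Tbx1, Hopx and Runx1 held none either.

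The markers came last. Cd34, the sialomucin used with α6-integrin to gate the cells, was measured at 1323, 1285 and 1157 in control and 1222, 1176 and 1160.0 in eKO libraries. The groups overlapped within a narrow range (log2 fold change -0.080, 95% interval -0.30 to 0.14, limma adjusted p = 0.638). CD34 protein was used to gate the cells, and the part of the gate in this level was not tested. CD34 is also carried by endothelial cells, whose genes summed to at most 10.6 RPM in control and at least 169 in eKO libraries. Hopx had 144, 189 and 177 normalised reads in control and 101, 153 and 53.3 in eKO libraries. A single eKO library, replicate 2, lay within the control range and the other two below it, and the log2 fold change of -0.84 (SE 0.34) did not pass with all libraries (limma adjusted p = 0.100) and was -1.19 without that library (limma adjusted p = 0.0239). Without eKO replicate 2, 3 regulators passed the test in place of 1: Foxp1, Nfatc1 and Hopx. In that fit 2620 of all 14236 genes tested passed.

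**Figure D1:**
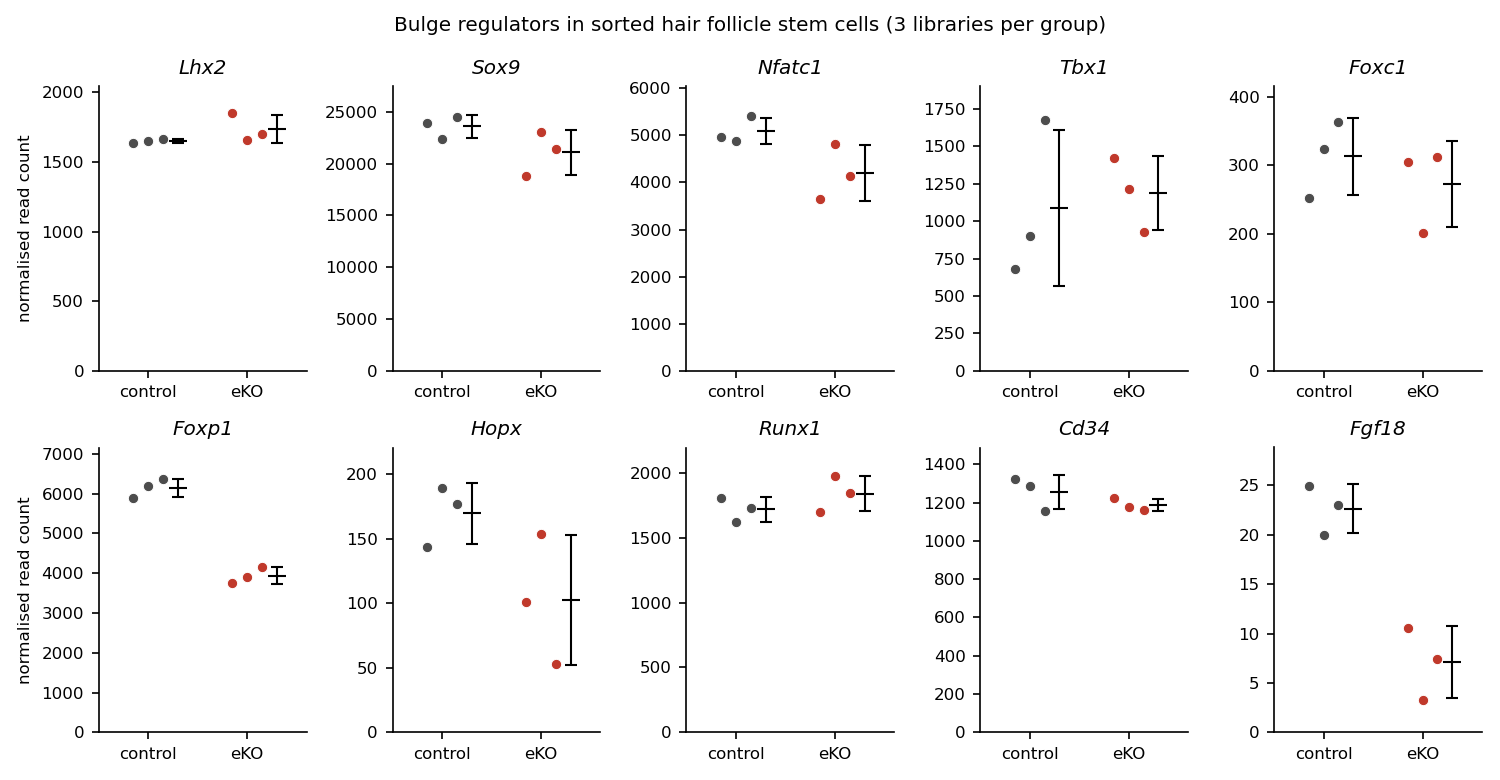
Normalised read counts of the 10 genes in sorted HFSC, 1 point per library (3 control in grey, 3 eKO in red), with the mean and SD as a black bar; each vertical axis starts at 0. Foxp1, Nfatc1 and Fgf18 show no overlap between the groups; the Foxp1 means are 6143 ± 232 against 3935 ± 209.5.

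In whole skin the order of the same genes was another one. In RPKM, Hopx stood first in the controls at 77.9 ± 28.6 (SD, n = 5), above every value of Sox9 (22.3 ± 6.50). Cd34 stood last at 2.86 ± 1.11, and the values of each gene from Sox9 down overlapped those of the next. Setting the control libraries of both tissues side by side in RPM, which were prepared with different kits and normalised in separate tables, 7 of the 10 genes were higher in every HFSC library than in any skin library, 2 were lower and 1 overlapped. Sox9 stood at 3505 RPM in HFSC and 92.1 in skin, a ratio of 38.0. For Cd34 the ratio was 8.95 (187 against 20.8 RPM), for Foxp1 6.27, for Nfatc1 6.26, for Lhx2 5.48, for Tbx1 4.31 and for Runx1 4.05. Hopx was 4.68 times higher in skin (118 against 25.2 RPM) and Fgf18 5.70 times higher (19.2 against 3.37), and Foxc1 overlapped (64.0 against 46.5). These ratios are descriptions, and no test was made across the tables.

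Genotype was compared next in skin. None of the 10 regulators passed limma's test there, against 0.374% of all genes tested. At an unadjusted p under 0.05, 3 of the 10 were past that level, Sox9 and Runx1 higher and Fgf18 lower in eKO skin, where 14.2% of all genes were. All 10 genes overlapped between the groups, as did all but 4.18% of the genes tested. The count tests on recovered reads gave 0 regulators in edgeR and 2 in DESeq2, which called Sox9 (adjusted p = 0.0154) and Fgf18 (adjusted p = 0.0164) among 656 genes in all, against 62 in limma. Estimates were above 0 for 8 of the 10, with a median log2 fold change of 0.34 against 0.00 over all genes.

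Sox9 had normalised read counts of 1001, 582, 1269.8, 1176 and 1281 in control skin and 2137, 1233, 4128, 2278 and 1973 in eKO skin. Of the 5 eKO libraries, 4 lay above every control, and replicate 2 lay within the control range. The means were 1062 ± 291 and 2349.6 ± 1073 (SD, n = 5 each), with a log2 fold change of 1.09 (95% interval 0.41 to 1.77, limma adjusted p = 0.155). Runx1 was measured at 552, 708, 528, 1050.2 and 772 in control and 1204, 804, 2007, 1170.2 and 1229.9 in eKO libraries. Again 4 eKO libraries exceeded every control and replicate 2 did not, and the log2 fold change was 0.81 (0.27 to 1.35, limma adjusted p = 0.179). Lhx2 stood at 415, 215, 362, 712 and 839 in control and 338, 361, 1119, 727 and 289.6 in eKO skin, and Tbx1 followed it closely from library to library, with 267, 159, 287, 697 and 710.0 in control and 362, 328, 1318, 719 and 289.6 in eKO skin. Both varied by more than 3 times within each group, and their log2 fold changes were 0.11 (SE 0.45, limma adjusted p = 0.933) and 0.49 (SE 0.51, limma adjusted p = 0.717).

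Of the quiescence genes, Fgf18 had 225, 245, 259, 126 and 262 normalised reads in control and 96.2, 182, 118, 77.7 and 73.1 in eKO skin. Control replicate 4 lay within the eKO range, and the other 4 controls lay above every eKO library. The means were 224 ± 56.5 and 109 ± 44.1 (SD, n = 5 each), with a log2 fold change of -1.06 (95% interval -1.68 to -0.44, limma adjusted p = 0.137). Nfatc1, at 1480.5, 1326, 1961, 867 and 1416 in control and 1166, 1441, 1214, 1732 and 1085 in eKO skin, overlapped throughout (log2 fold change -0.061, limma adjusted p = 0.919). Foxp1, the gene that was lower in eKO HFSC, stood at 1601, 1399.6, 1455, 2182 and 1728 in control and 1686, 1703, 2513, 1689.7 and 1756 in eKO skin, where the groups overlapped and eKO replicate 3 lay far above the rest of its group. Its log2 fold change was 0.16 (95% interval -0.17 to 0.49, limma adjusted p = 0.679). Foxc1 had 628, 417, 615, 1221 and 774 in control and 981, 733, 1603, 1001 and 714 in eKO libraries, also overlapping (log2 fold change 0.49, limma adjusted p = 0.490).

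For the markers in skin, Cd34 was measured at 384, 269, 159, 141 and 259 in control and 393, 407, 320.4, 283 and 275 in eKO libraries. The groups overlapped, since control replicate 1 lay among the eKO values while the other 4 controls lay below every eKO library, and the log2 fold change was 0.54 (95% interval -0.030 to 1.12, limma adjusted p = 0.380). In whole skin Cd34 is also carried by vessels and dermal cells, so its level is not that of the bulge alone. Hopx stood at 1055, 1233, 1660.4, 2007 and 863 in control and 1286, 1397, 1974, 1568 and 1302 in eKO skin, the eKO values lying inside the control range (log2 fold change 0.19, limma adjusted p = 0.744).

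**Figure D2:**
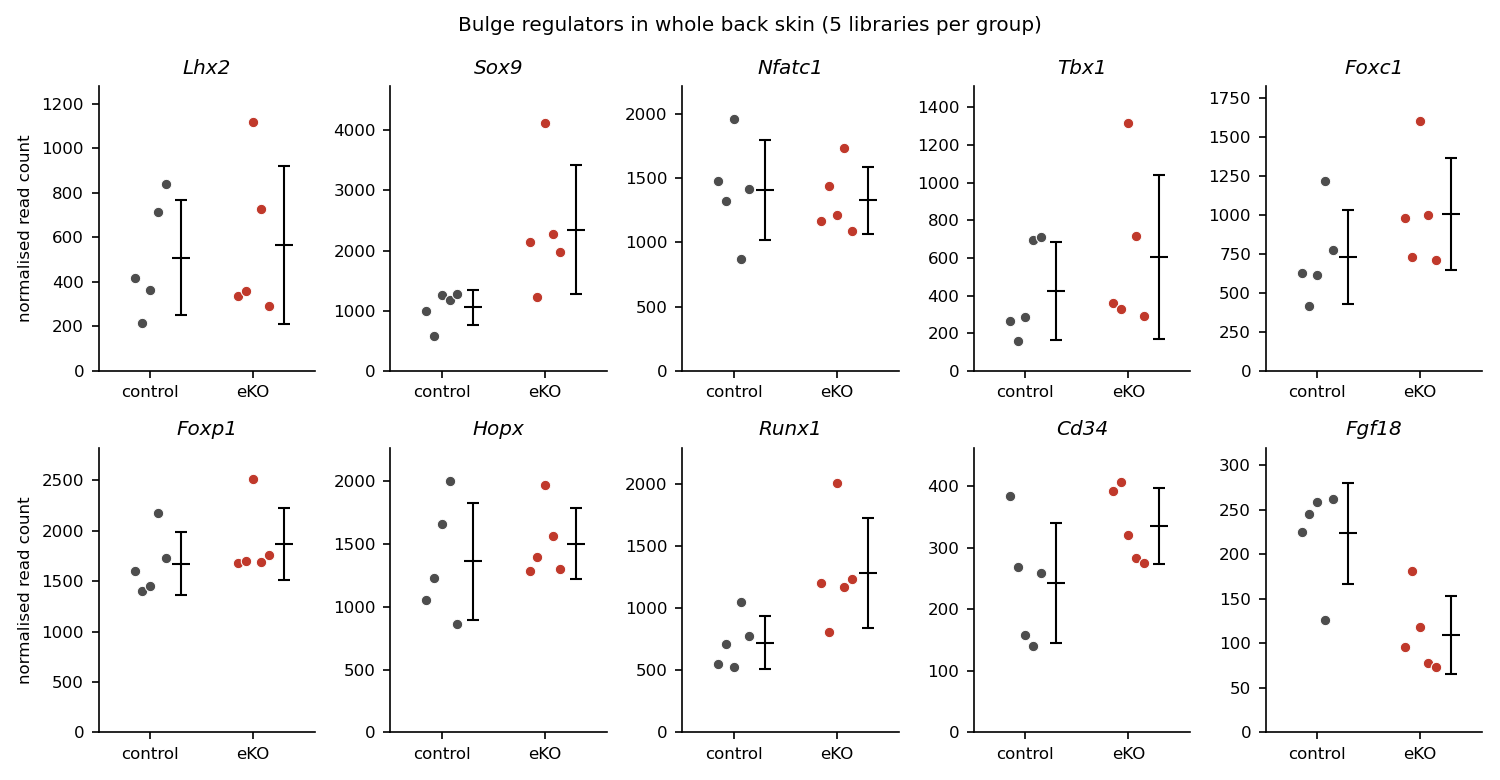
Normalised read counts of the 10 genes in whole back skin, 1 point per library (5 control in grey, 5 eKO in red), with the mean and SD as a black bar; each vertical axis starts at 0. The groups overlap for all 10 genes. For Sox9 and Runx1 4 of 5 eKO libraries lie above every control, and for Fgf18 4 of 5 controls lie above every eKO library.

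The skin libraries also differed in 19 keratins and other genes of the hair matrix and shaft, which are made by growing hairs. That list averaged, in log2 values, 1.70, 4.26, 7.67, 11.8 and 8.38 in control replicates 1 to 5, and 2.29, 7.28, 10.1, 9.16 and 2.70 in the eKO replicates. The libraries highest in Lhx2 and Tbx1 (eKO replicate 3, control replicates 4 and 5 and eKO replicate 4) were the 4 with the highest scores, all above 8. Foxc1 was highest in the 2 libraries with the highest scores, control replicate 4 and eKO replicate 3. Sox9 was at 1233 or more in every eKO library and at 1281 or less in every control. Its highest value, 4128, was in eKO replicate 3, the eKO library with the highest score. With the score as a covariate in limma, 5 regulators had an unadjusted p under 0.05, as did 2725 of all 16589 genes tested. None of the regulators passed the adjusted test, where 143 of all genes did. No library scored between 4.26 and 7.28, and no correlation with the score is given.

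**Figure D3:**
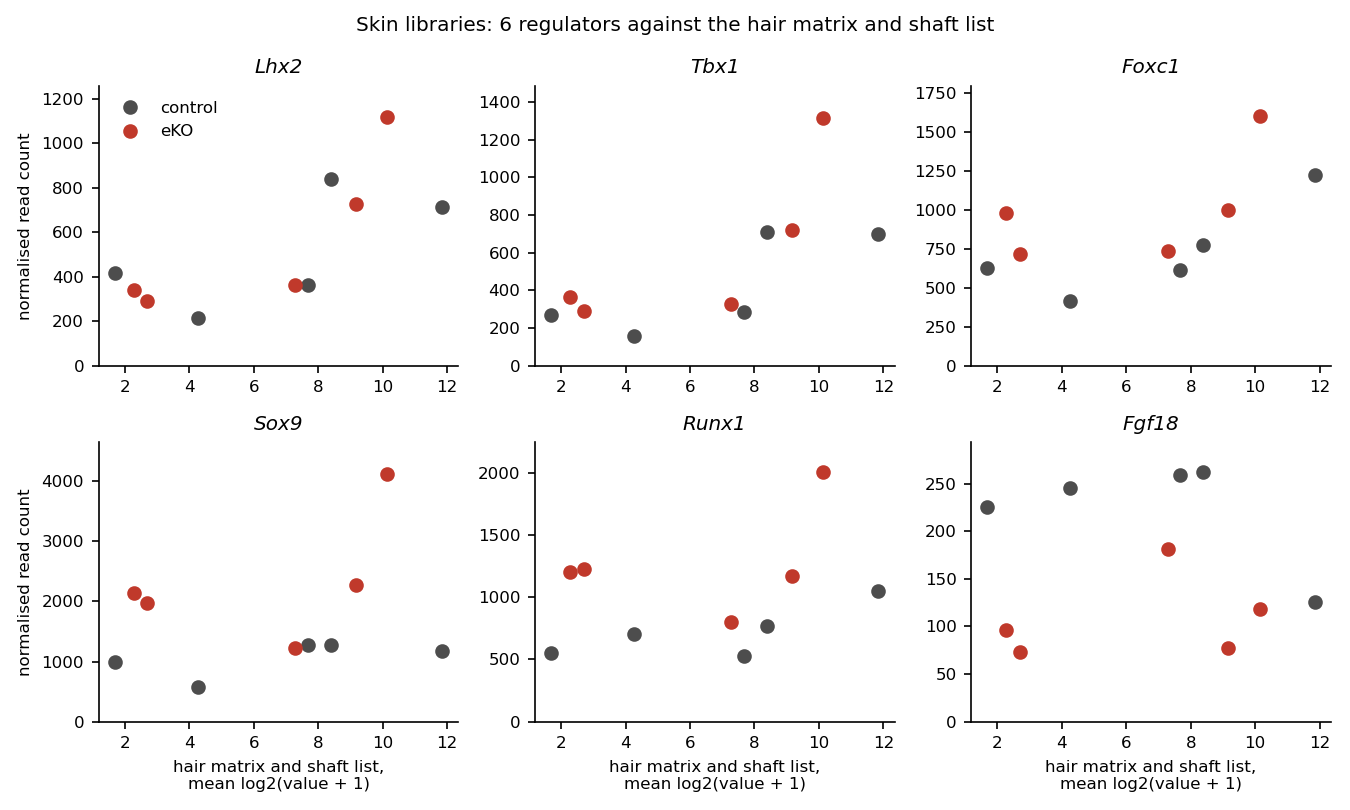
Normalised read counts of Lhx2, Tbx1, Foxc1, Sox9, Runx1 and Fgf18 in the 10 skin libraries (vertical axes, starting at 0) against the average log2(value + 1) over 19 hair matrix and shaft genes (horizontal axes); control in grey, eKO in red. Lhx2 and Tbx1 are highest in the 4 libraries with scores above 8. Sox9 sits between 582 and 1281 in control and between 1233 and 4128 in eKO skin. Its highest value is in the eKO library with the highest score.

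The difference between the genotype effects of HFSC and of skin was tested in 1 limma model, which uses only contrasts within each table. Foxp1 passed this test, at a difference of -0.80 log2 units (HFSC effect minus skin effect, SE 0.21, limma adjusted p = 0.0337). It was the 1 regulator of 10 to do so, against 5.62% of all genes tested in both tables (2.18% called with a negative difference). The Foxp1 call did not hold in edgeR with library size as the only scaling (adjusted p = 0.0527), nor in limma without HFSC control replicate 1 (0.0613), 2 (0.0702) or 3 (0.0713), HFSC eKO replicate 1 (0.0680) or 2 (0.0535), or skin control replicate 2 (0.0543) or 3 (0.0546). The estimate for Foxp1 stayed between -0.90 and -0.69 in all 24 alternatives. For Sox9 the difference was -1.26 (SE 0.42, limma adjusted p = 0.0898), and it passed without skin eKO replicate 2 (adjusted p = 0.0335). It also passed with a standard error of its own for each tissue (adjusted p = 0.00220). That alternative takes its p-values from a normal distribution, which makes no allowance for the small number of libraries. It called 1448 of all genes, against 743 in the main test. For Hopx the difference was -1.03 (limma adjusted p = 0.162), passing without HFSC eKO replicate 2 (adjusted p = 0.0468). Runx1 (-0.71), Foxc1 (-0.70), Cd34 (-0.62), Fgf18 (-0.59), Tbx1 (-0.28), Nfatc1 (-0.22) and Lhx2 (-0.044) had adjusted p-values from 0.226 to 0.979. All 10 estimates were below 0, meaning a lower or less positive log2 fold change in HFSC than in skin, with a median of -0.66 against -0.0072 over all genes. Those of Lhx2 and Tbx1 turned positive, to at most 0.25 and 0.089, without certain single libraries.

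**Figure D4:**
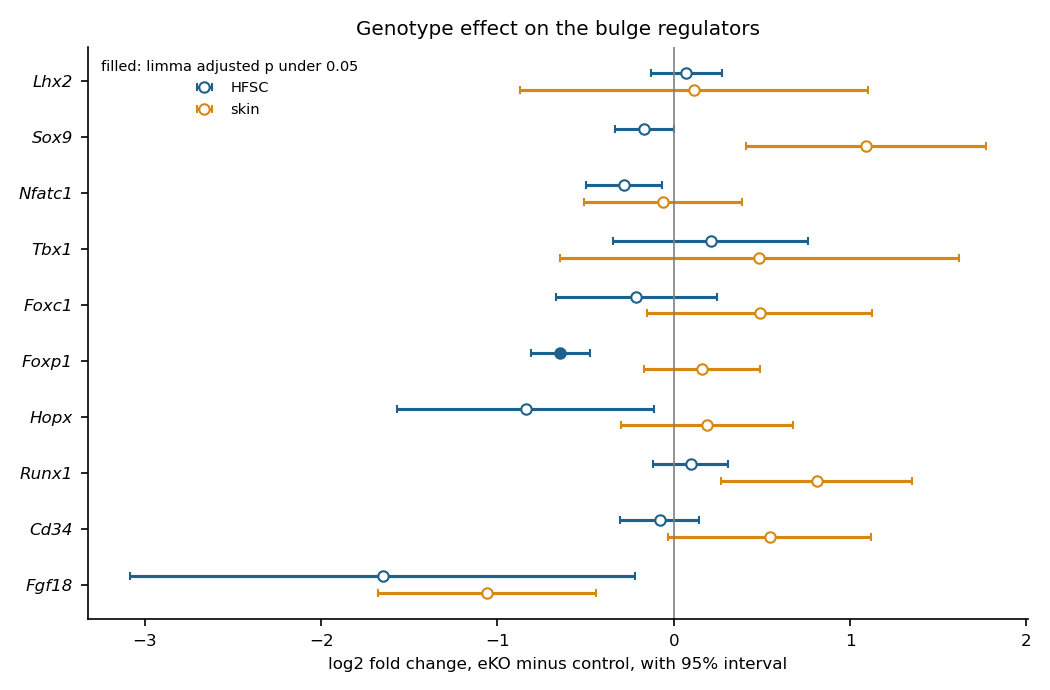
Log2 fold change of each regulator, eKO minus control, with its 95% interval, in HFSC (blue) and in skin (orange); filled points passed the test at an adjusted p under 0.05. Foxp1 in HFSC is the one filled point (-0.64), and its skin interval, -0.17 to 0.49, lies to the right of the HFSC interval, -0.81 to -0.47.

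A list of 10 genes known as targets, partners or upstream signals of the regulators was looked at next. In HFSC 5 of the 10 passed the test, 3 higher and 2 lower in eKO, against 19.4% of all genes tested. This list and those that follow were chosen with earlier results of these data known, so nothing is read from their shares. The median log2 fold change of the 10 genes was 0.029. In skin 0 of 10 passed in limma or edgeR, and 3 had an unadjusted p under 0.05 in limma, where 14.2% of all genes did. DESeq2 called Inhbb in skin (adjusted p = 0.00903). Klf5, a Krüppel-like factor of the epidermal lineage, rose from 1222 ± 369 in control to 3892 ± 209.6 in eKO HFSC (SD, n = 3 each, log2 fold change 1.71, limma adjusted p = 1.47e-05). Cdkn1a, the cell cycle inhibitor that Runx1 is known to repress, rose from 297 ± 7.39 to 799 ± 206 (log2 fold change 1.39, limma adjusted p = 1.52e-04). Inhbb, an activin subunit that Sox9 is known to regulate in these cells, rose from 385 ± 92.9 to 675 ± 81.5 (log2 fold change 0.83, limma adjusted p = 0.00694). Prlr, the prolactin receptor, fell from 1583 ± 209.6 to 743 ± 71.5 (log2 fold change -1.09, limma adjusted p = 6.40e-05). Lgr5, the R-spondin receptor of bulge and germ cells, fell from 7376 ± 112 to 3833 ± 165 (log2 fold change -0.94, limma adjusted p = 2.85e-06). These 5 calls held in every alternative run in HFSC. The other members of the list did not pass: the Nfatc1 target Cdk4 (0.23), Tcf7l2 (0.20), the adhesion gene Cdh1 (-0.14), Bmp6 (-0.14) and the inhibitor gene Cdkn1c (-0.61, tested through the control libraries alone), all as log2 fold changes.

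In skin the same 5 genes had log2 fold changes of -0.023 for Klf5, 0.22 for Cdkn1a, 1.11 for Inhbb, 0.12 for Prlr and 0.68 for Lgr5. The difference between the tissues passed the test for Klf5 (1.73, limma adjusted p = 0.00140), Cdkn1a (1.17, adjusted p = 0.0209) and Prlr (-1.21, adjusted p = 0.0308). It did not pass for Lgr5 (-1.63, limma adjusted p = 0.131) or Inhbb (-0.27, adjusted p = 0.758). For Lgr5 the adjusted p was 0.00862 from a normal distribution with a standard error of its own for each tissue. The call on Klf5 held in all 24 alternatives. That on Cdkn1a was lost without HFSC control replicate 1 (adjusted p = 0.0534) or HFSC eKO replicate 1 (0.0584), and that on Prlr without HFSC control replicate 1 (0.0934) or 2 (0.0577), HFSC eKO replicate 1 (0.0629) or 3 (0.0598), or skin eKO replicate 2 (0.0554) or 3 (0.0520).

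Other genes of the bulge programme gave a mixed picture in HFSC. Of 12 further bulge transcription factors and cofactors 11 were tested and 3 passed (19.4% of all genes did), with Bcl11b and Stat3 higher and the corepressor Tle4 lower. Tle4 fell from 822 ± 23.5 to 420.0 ± 103 normalised reads (SD, n = 3 each, log2 fold change -0.99, limma adjusted p = 1.00e-03), while Bcl11b (0.36) and Stat3 (0.31) had small log2 fold changes. The call on Bcl11b was lost without control replicate 2 (adjusted p = 0.0516), and that on Stat3 with library size as the only scaling (0.0620 in limma) and without any one of the controls (0.0690 to 0.111) or eKO replicate 2 (0.0681). Of 16 other bulge markers 7 passed, 5 higher and 2 lower, beside the same 19.4% of all genes, with a median log2 fold change of 0.14 over the list. Without single libraries 5 to 9 of the markers passed. The call on Ltbp1 (higher) was lost in 9 of 15 alternatives and that on Dkk3 (lower) in 6 of 15. The largest rise was that of the Wnt inhibitor Wif1, from 312 ± 29.0 to 2109 ± 103 (log2 fold change 2.75, limma adjusted p = 2.66e-08), and Itga6, which encodes the α6-integrin of the gate, rose from 2159.5 ± 136 to 3222 ± 75.9 (log2 fold change 0.58, limma adjusted p = 5.10e-04). The keratin Krt15 did not pass (log2 fold change -0.12, limma adjusted p = 0.292). Without control replicate 2 the number of these factors that passed fell to 1, Tle4. In skin none of these 12 factors and 16 markers passed limma's test, edgeR or DESeq2. There 3 of the factors and 5 of the markers had an unadjusted p under 0.05 in limma, as did 14.2% of all genes tested.

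Close relatives of the regulators were examined next. Of 40 paralogs and receptors, 21 were tested in HFSC and 6 passed, 4 higher and 2 lower, against 19.4% of all genes tested. Sox7 rose from 150.4 ± 53.4 to 869 ± 83.7 normalised reads (SD, n = 3 each, log2 fold change 2.59, limma adjusted p = 1.05e-05), and Sox15 from 74.5 ± 3.25 to 310.5 ± 53.7 (log2 fold change 2.03, limma adjusted p = 4.25e-05). Sox7 also belongs to the list of isthmus and infundibulum genes, and both genes remained far below Sox9, whose eKO libraries held 18777, 23029.7 and 21424 normalised reads. Fgfr2, a receptor for fibroblast growth factors, fell from 3498 ± 321 to 2458 ± 86.1 (log2 fold change -0.51, limma adjusted p = 0.00195). The 6 that passed were 5 Sox genes and Fgfr2, and 1 of the Sox genes, Sox8, entered the test through the eKO libraries alone. In skin 34 of the relatives were tested and 0 passed in limma or edgeR. An unadjusted p under 0.05 in limma was reached by 5 of them, beside 14.2% of all genes tested. DESeq2 called 2, Sox7 (log2 fold change 1.18, adjusted p = 0.0106) and Nfatc3 (-0.27, adjusted p = 0.0459).

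Genes of the fates that border the bulge were counted for comparison. Over all 13784 genes tested in HFSC, 1468 were called higher in eKO and 1205 lower. Over all 16589 tested in skin, 62 passed limma's test, 2348 had an unadjusted p under 0.05 and DESeq2 called 656. Of the hair germ and activated progenitor list 4 of 9 tested genes were higher in eKO HFSC and 0 lower, among them Lef1, a Wnt effector (log2 fold change 1.23, limma adjusted p = 5.81e-04), and the proliferation marker Mki67 (1.35, adjusted p = 2.06e-05). The isthmus and infundibulum list had 5 of 7 higher and 1 lower, led by Krt79, a keratin of the upper follicle, at 162 ± 31.1 in control and 2205 ± 259.5 in eKO HFSC. Higher too were 5 of 8 sebaceous genes, 7 of 8 of differentiated epidermis, 8 of 9 of hair matrix and shaft and 8 of 9 of endothelium. So were 3 of 7 of leukocytes, 1 of 3 of dermal fibroblasts and the 1 adipocyte gene tested. In these lists none was called lower. Part of these counts follows from the filter on low values: 8 of the 9 endothelial genes, 3 of the 9 of hair matrix and shaft, 1 each of the hair germ, isthmus and sebaceous lists, the dermal fibroblast gene Dcn and the adipocyte gene Lpl reached the minimum value of 10 in all 3 eKO libraries and not in all 3 controls, so they entered the test through the eKO libraries, and nothing is read from their direction. Col1a2, another fibroblast gene, was lower in every eKO library than in any control (log2 fold change -1.23, limma adjusted p = 0.0524) and did not pass. Lor, of the differentiated epidermis list, was also lower in every eKO library than in any control. Its means were 30.3 ± 17.9 normalised reads in control and 8.98 ± 8.26 in eKO HFSC (SD, n = 3 each). Lor entered the test through the control libraries alone and did not pass (limma adjusted p = 0.113). Of the 8 sebaceous genes tested, 7 had an estimate above 0 and Awat2, named after its values were seen, had one below 0. Awat2 stood at 21.7 ± 6.81 in control and 12.6 ± 3.10 in eKO HFSC (SD, n = 3 each), and the groups overlapped. It too entered through the control libraries alone and did not pass (limma adjusted p = 0.427). Of melanocyte genes 1 of 4 was lower, and of skeletal muscle genes 0 of 1 passed. Without eKO replicate 1, 0 adipocyte and 2 dermal fibroblast genes passed in HFSC, and without eKO replicate 2, 2 melanocyte genes did. In skin 1 of 7 isthmus genes (Krt79) and 2 of 10 sebaceous genes (Cidea and Far2) were higher in limma, where 6 and 10 had an unadjusted p under 0.05 and DESeq2 called 5 of each list (all higher but Lgr6, at -0.65), and 0 of the genes in the other lists passed limma's test or edgeR's. At an unadjusted p under 0.05 in limma those other lists held 3 genes of differentiated epidermis, 1 of leukocytes and 1 of skeletal muscle, and DESeq2 called 2 of differentiated epidermis (Casp14 and Klk7) and 1 of leukocytes (Cd52), named after their values were seen. All 3 skin calls were lost without certain single libraries: that on Krt79 was lost without control replicate 1, 2 or 5 or eKO replicate 1, 3 or 5 (adjusted p 0.0519 to 0.0637), that on Cidea without control replicate 2 or 3 or eKO replicate 1, 3, 4 or 5 (0.0518 to 0.0989), and that on Far2 without any single library other than control replicate 4 (0.0518 to 0.115).

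**Figure D5:**
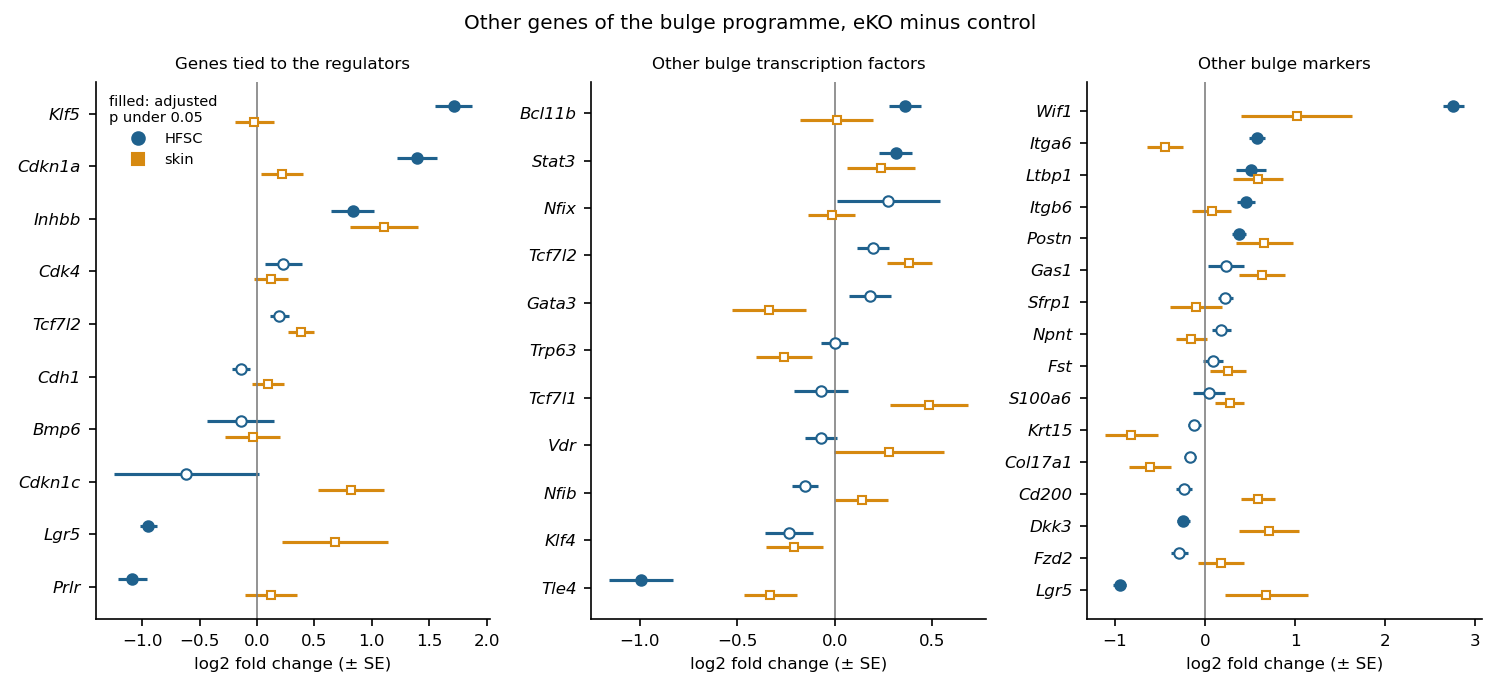
Log2 fold change (± SE), eKO minus control, of the genes tied to the regulators, of other bulge transcription factors and of other bulge markers, in HFSC (blue circles) and skin (orange squares); filled symbols passed the test. Filled symbols are seen for HFSC and not for skin, and they lie on both sides of 0 in each list (Lgr5, in 2 of the lists, at -0.94 and Wif1 at 2.75).

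Across the 10 skin libraries, which mix genotypes and differ in their hair matrix genes, the genes most like each regulator were found by Pearson's r of log2 values over 13432 genes. Lhx2 and Tbx1 were each other's nearest gene (r = 0.966). Foxc1 ran with Foxp1 (r = 0.907) and Tbx1 (r = 0.904), and was nearest to Mc5r (r = 0.979), a melanocortin receptor of sebaceous glands. Sox9 and Runx1 ran together (r = 0.819), and both ran against Fgf18 (r = -0.686 for Sox9 and -0.781 for Runx1). The nearest gene of Sox9 was Ildr1 (r = 0.955), that of Runx1 Rassf9 (r = 0.972), that of Nfatc1 Maoa (r = 0.903) and that of Foxp1 Sardh (r = 0.955). For Hopx it was Adam10 (r = 0.972), for Cd34 Nfatc4 (r = 0.983) and for Fgf18 Ifitm6 (r = 0.952). With 10 libraries and so many genes searched, the nearest gene of every regulator had an r of at least 0.903, and these are descriptions without a test.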

How the data were processed

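RNA of 10 whole back skin and 6 sorted HFSC libraries was sequenced. The authors deposited 1 table per tissue whose values are a signal: read counts per gene divided by a size factor of each library. Per the submitters' processing notes, featureCounts and DESeq2 were used for skin and the build was GRCm39 for both tissues; tools for HFSC are not given in the sources used here. Whole reads were recovered from the step of the low values, and 100% of the nonzero values came out whole within 0.01; in HFSC control replicates 1 and 3 the size factor is near 1, so there the step cannot be told from rounding. How strand and reads shared between gene copies were counted is not given in the sources used here.

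Groups follow the genotype and tissue labels. Nothing says that libraries come from separate animals, so p-values measure the spread between these libraries only. The main test was limma (version 3.58.1, trended prior) on log2(value + 1), a scale that understates changes of low genes. Genes entered it where the number of libraries with a value of 10 or more reached the size of the smaller group, which left 13784 genes in HFSC and 16589 in skin, with Benjamini-Hochberg adjustment over all genes tested and a threshold of 0.05. The difference between tissues was an interaction contrast over 13227 genes. Alternatives were edgeR (version 4.0.16) and DESeq2 (version 1.42.0) on recovered reads, library size scaling, other pseudocounts and filters, a replicate block, leaving out libraries, and a hair matrix covariate in skin. The fits were tested on simulated data.

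Gene names came from GENCODE M21 by identifier and matched 94.1% of skin and 91.4% of HFSC rows. Exon lengths came from GENCODE M21 (GRCm38), and promoter windows from RefSeq on GRCm38.p6, not the build of the tables. The 10 members and all gene lists were chosen with earlier results of these data known. Named are the members, Grk2, the genes tied to them, up to 3 genes per direction with the largest change among those past the threshold in each other list, and each member's nearest genes in skin among genes with a mean value of at least 50. Krt15 and the genes at 0 in a list were named as checks of the sort, after their values were seen.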

Additional observations from a re-analysis of the deposited data

Results flagged for a closer look

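In skin, the highest or lowest library of a group stood apart from the others in 4 of the 40 groups looked at (10 regulators and 10 tied genes, with Dixon's criterion of 0.71 for 5 libraries), where chance gives about 1 in 20. Foxp1 was at 2513 normalised reads in eKO replicate 3, with the next library of the group at 1756. Fgf18 was at 126 in control replicate 4, with the next control at 225. Tcf7l2 was at 1239.9 in eKO replicate 3, with the next library at 977, and Cdkn1c was at 172 in control replicate 1, with the next at 115.

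The genotype effect differed between HFSC and skin by limma's interaction contrast for 4 of these 20 genes, against 5.62% of all genes tested. The 20 genes were chosen with earlier results of these data known, so nothing is read from that share. The differences, HFSC minus skin, were -0.80 log2 units for Foxp1 (adjusted p = 0.0337), -1.21 for Prlr (adjusted p = 0.0308), 1.17 for Cdkn1a (adjusted p = 0.0209) and 1.73 for Klf5 (adjusted p = 0.00140). The call on Klf5 held in all 24 alternatives, while that on Foxp1 was lost in 8 of them, that on Prlr in 6 and that on Cdkn1a in 2.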

How the results depend on the processing

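Of 149 alternative values of the regulators in HFSC, 144 kept direction and side of the threshold, as did 192 of 200 in skin and 221 of 239 for the difference between tissues; Fgf18 had no value in HFSC with a minimum of 30. In HFSC 2 regulators passed with library size only, in edgeR (2711 of all 13784 genes) and in limma (2807). Without single libraries 1 to 3 regulators passed. In skin DESeq2 called 2. For the difference between tissues, 2 passed with a standard error of its own for each tissue and p-values from a normal distribution. There were 0 in edgeR with library size only (4 at an unadjusted p under 0.05), 1 in edgeR with TMM, and 0 to 2 without single libraries. Over all genes, leaving out single libraries gave 1519 to 2620 calls in HFSC against 2673. In skin, against 62, there were 656 with DESeq2, 31 with edgeR and 32 with limma on library size only, 143 with the hair matrix covariate, 37 without a filter, 10 to 57 without single libraries, and 0 in limma without the 2 libraries low in Y-linked genes (1790 at an unadjusted p under 0.05; edgeR and DESeq2 were not run on that subset). The difference between tissues had 743 calls, 1448 with separate standard errors and p-values from a normal distribution, and 484 to 896 without single libraries. The cause was not tested. The 2 skin libraries low in Y-linked genes were control replicate 5 and eKO replicate 3. Without both of them 0 regulators passed limma's test in skin, and 3 had an unadjusted p under 0.05.

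Signs changed for small estimates without single libraries: in HFSC Tbx1 (-0.071 to 0.58) and Bmp6 (-0.44 to 0.18); in skin Lhx2 (-0.18 to 0.33), Nfatc1 (-0.22 to 0.070), Prlr (-0.017 to 0.26) and Klf5 (-0.12 to 0.090); for the difference Lhx2 (-0.26 to 0.25) and Tbx1 (-0.56 to 0.089). In skin Klf5 was also 0.020 in edgeR and 0.0018 in limma with library size only, and without the 2 libraries low in Y-linked genes Klf5 was 0.047 and Hopx -0.060.

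Replicate numbers in the HFSC titles did not pair the libraries (correlations of same-numbered deviations -0.060, -0.018 and -0.026). With the replicate block 2696 genes and 1 regulator, Foxp1, passed. Depth limits Fgf18 in HFSC most, at 3 to 25 reads per library.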
